A study of Mus musculus with 4 samples.

Results

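The keratin genes were profiled in cells of chimeric mouse kidneys at embryonic day 15.5. Genes with the symbol Krt, a number and at most 1 further letter were taken from the array annotation, which gave 48 of the 18194 genes tested, read by 61 probe sets. The chimeras came from wildtype blastocysts injected with 3 to 5 GFP-expressing embryonic stem cells without Tfrc, the gene of transferrin receptor 1. After collagenase and trypsin/EDTA digestion, cell sorting gave GFP-positive cells, labelled Tfrc-/-, and GFP-negative wildtype cells of the host, with 2 arrays per group, each made from 50 ng of amplified RNA. Both groups came from chimeric kidneys, and no array holds donor cells with Tfrc intact, so loss of Tfrc and other properties of the donor line cannot be told apart. The labels do not name the stem cell clone, the strain or the animals.

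Keratins are the intermediate filament proteins of epithelial cells, and a filament forms only when a type I keratin pairs with a type II keratin. Simple epithelia, such as kidney tubules and ducts, rely mainly on Krt8 with Krt18, joined by Krt7 and Krt19 in ducts. Stratified epithelia use other pairs, among them Krt5 with Krt14 in basal cells and Krt1 with Krt10 in the layers above, and hair and its sheath have keratins of their own. In the developing kidney the ureteric bud and the nephron tubules are simple epithelia, while stroma, endothelium and blood cells use other filaments such as vimentin. The 48 genes comprised 5 simple keratins (Krt7, Krt8, Krt18, Krt19 and Krt20), 17 stratified keratins, 21 keratins of hair and its sheath, and 5 others, Krt23 among them.

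The labels and the arrays were checked first. The brightest Tfrc probe set read 2509 and 3175 on the arrays labelled Tfrc-null, against 1759 and 2348 on the wildtype arrays. The further Tfrc probe sets above background also read higher on the labelled Tfrc-null array of each replicate number. A set at the 5' end lay below background on every array. Tfrc was thus not lower where the label says the gene was deleted. A probe set outside the deleted part does not check the label, and directions given here rest on the label. Median intensities were 17.5 to 19.3. The actin 3' to 5' probe set ratio was 5.89 and 7.21 on the labelled Tfrc-null arrays, against 5.51 and 6.49 on the wildtype arrays. This ratio was higher on the arrays of replicate number 2, and within each number on the labelled Tfrc-null array. Its part in the differences was not tested. A bacterial hybridisation control split the arrays by replicate number rather than by group: the BioB probe set read 5110 and 3742 on arrays 1 and 2 of the labelled Tfrc-null group, against 5007 and 3329 on arrays 1 and 2 of the wildtype group. Of the kidney genes Six2, Wt1, Sall1 and Pax8, 4 of 4 lay above background on the arrays of both groups.

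Background was set for each array at the highest of 27 Bacillus subtilis control probe sets, here called the control level. It stood at 7.40 and 7.77 on the labelled Tfrc-null arrays and at 7.18 and 9.08 on the wildtype arrays. A keratin counted as measured when both arrays of at least 1 group lay above it, and this held for 28 of the 48 genes (58.3%), against 79.9% of all genes. All 5 simple keratins were measured, as were 11 of 17 stratified, 8 of 21 hair and 4 of 5 other keratins. Readings of different probe sets depend on their probes, so levels are compared between arrays and not between genes.

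**Figure D1:**
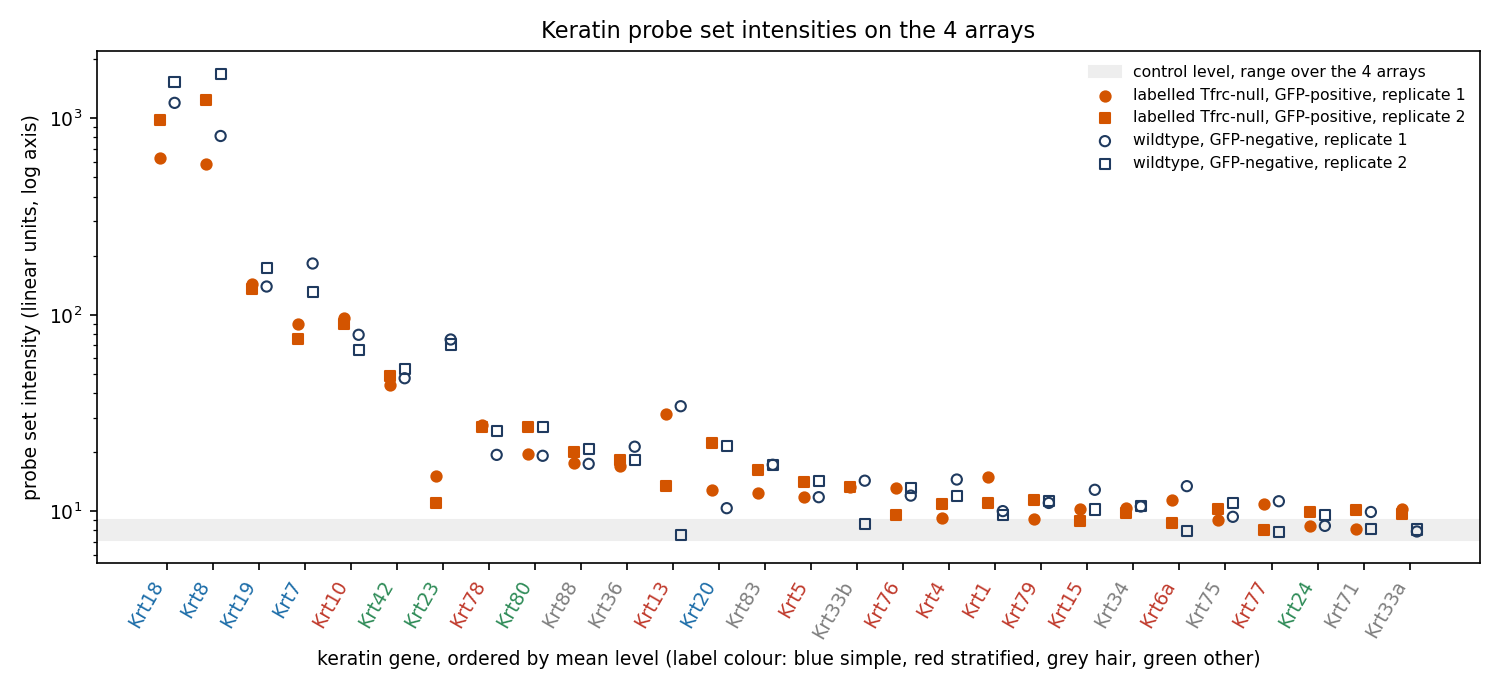
Probe set intensity (log axis) of the 28 measured keratin genes on each array, with labelled Tfrc-null arrays as filled orange symbols and wildtype arrays as open blue symbols; the order along the axis is by mean reading. Krt23 reads 15.2 and 11.004 on the labelled Tfrc-null arrays, against 74.9 and 70.6 on the wildtype arrays, and most stratified and hair keratins lie close to the grey band of control levels.

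Krt23, Krt7 and Krt18 had lower levels in the cells labelled Tfrc-null, none of them past the adjusted threshold. With limma, 0 of 48 keratins passed an adjusted p of 0.05, as did 0 of the 18194 genes (background 0%), while 1459 genes had an unadjusted p under 0.05. Among the keratins 3 (6.25%) were lower with an unadjusted p under 0.05, namely these 3, and the share of all genes was 3.98%. None of the 48 was higher at that level, against 4.03% of all genes. Groups that were 2-fold or more apart and did not overlap were found for 1 lower keratin, Krt23 (2.08%), beside 1.51% of all genes, and for 0 higher keratins, beside 1.15%. With no size of difference required, 7 keratins (14.6%) lay lower without overlap and 6 (12.5%) higher, beside 14.3% and 20.6% of all genes. By mean alone, 24 keratins were lower and 24 higher, beside 42.4% and 57.4% of all genes. Of the 28 measured keratins 18 were lower and 10 higher, beside 6051 lower and 8475 higher of 14546 measured genes. The counts of lower keratins by p and by fold rest on 3 genes, and the count without overlap is near the background.

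**Figure D2:**
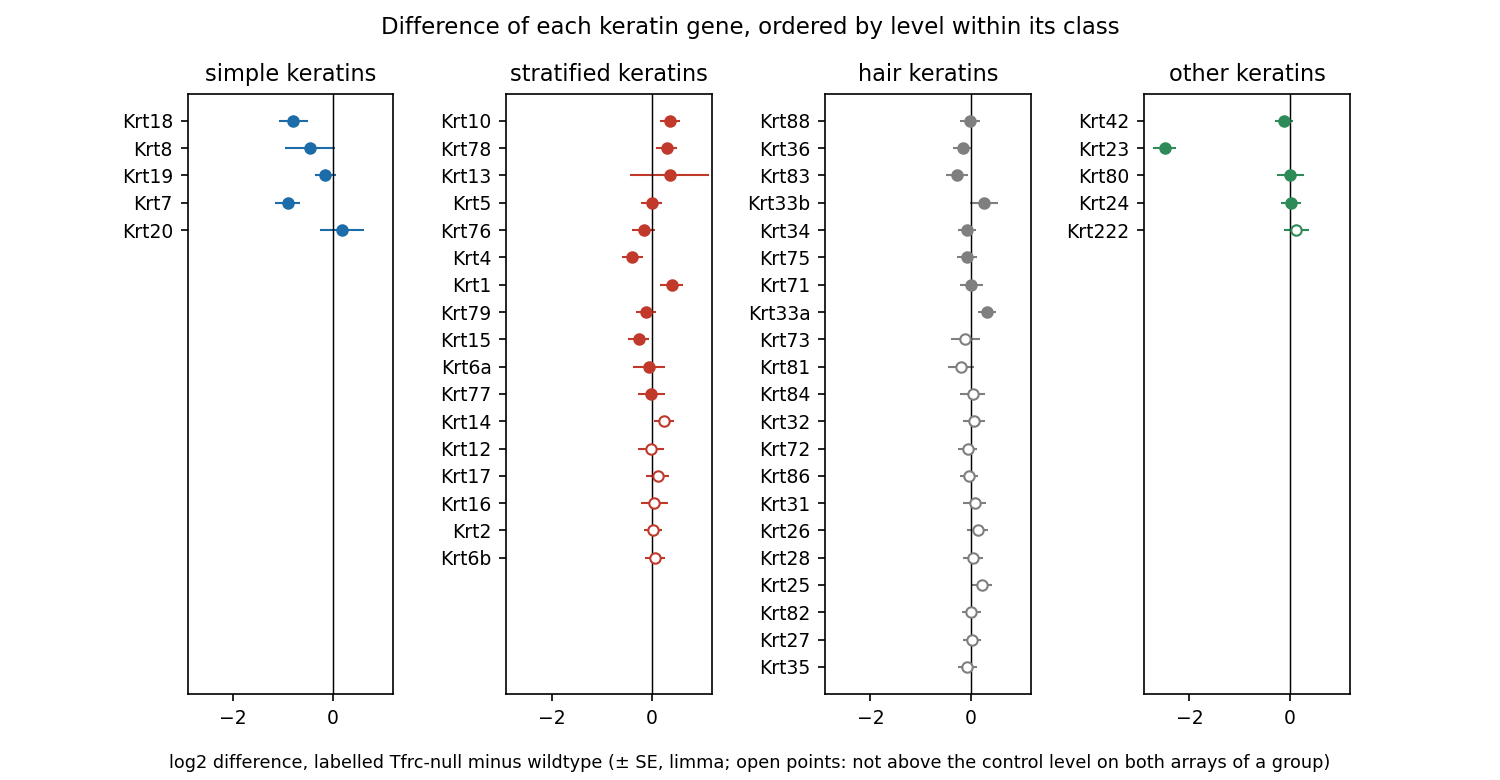
Log2 difference of each of the 48 keratin genes, labelled Tfrc-null minus wildtype, with its limma standard error, in panels by class and ordered by level; open points mark genes not above the control level on both arrays of a group. Krt23 lies at -2.49, Krt7 at -0.91 and Krt18 at -0.79, and the stratified and hair keratins lie between -0.39 and 0.39.

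Krt23, an epithelial type I keratin, differed most among the 48. It read 15.2 and 11.004 on the labelled Tfrc-null arrays, against 74.9 and 70.6 on the wildtype arrays. The groups were far apart. Means were 13.1 ± 2.96 in labelled Tfrc-null cells and 72.8 ± 3.04 in wildtype cells (SD, n = 2 each). The labelled Tfrc-null readings lay below the median intensities of those arrays (17.5 and 18.8) and not far above their control levels (7.40 and 7.77). The size of the fold is therefore uncertain. The level was 5.63-fold lower (log2 difference -2.49, SE 0.23, unadjusted p = 8.4e-05, limma adjusted p = 0.122), which left it short of the threshold although its p ranked as number 10 among the 18194. Within replicate numbers 1 and 2 the log2 difference was -2.30 and -2.68 in that order, both close to the pooled value. Krt23 was read by a single probe set. In these sorted bulk samples fewer cells of a type and less RNA per cell cannot be told apart, which holds for this and every following difference.

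Krt7, the type II keratin of ducts and of the ureter's lining, was the lowest of the simple keratins relative to wildtype. It read 90.0 and 75.6 on the labelled Tfrc-null arrays, against 182.5 and 131.1 on the wildtype arrays. Both labelled Tfrc-null arrays lay below both wildtype arrays, and the level was 1.88-fold lower (log2 difference -0.91, SE 0.24, unadjusted p = 0.0124, limma adjusted p = 0.406). Its unadjusted limma p went above 0.05 on leaving out the second labelled Tfrc-null array (0.0816) or the first wildtype array (0.052).

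Krt18 is the type I partner that Krt8 needs to form filaments in simple epithelia. Its readings were 626 and 983 on the labelled Tfrc-null arrays, against 1199 and 1531 on the wildtype arrays. These groups did not overlap either, at 1.73-fold lower (log2 difference -0.79, SE 0.29, unadjusted p = 0.0392, limma adjusted p = 0.575). Leaving out the first labelled Tfrc-null array gave -0.46, and leaving out the second gave -1.11. Its unadjusted limma p went above 0.05 on leaving out the first labelled Tfrc-null array (0.204) or the second wildtype array (0.153).

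Krt8, the type II partner, read 587 and 1243 on the labelled Tfrc-null arrays, against 813 and 1680.3 on the wildtype arrays. The groups overlapped. Arrays numbered 2 read higher than arrays numbered 1 in both groups, by 1.06 on the log2 scale, which is more than the group difference of -0.45 (SE 0.50, limma adjusted p = 0.942). Within replicate numbers 1 and 2 the difference was -0.47 and -0.44. All 3 Krt8 probe sets were lower on the labelled Tfrc-null array of each number, with differences of -0.45, -0.51 and -0.47. The pooled Krt8 difference turned to 0.09 without labelled Tfrc-null replicate 1 and to 0.07 without wildtype replicate 2. Each of these fits sets 1 array of a group against arrays of both numbers in the other.

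The remaining simple keratins showed no separation of the groups. Krt19, a type I keratin of ducts, read 144.0 and 135.6 on the labelled Tfrc-null arrays, against 139.4 and 172.8 on the wildtype arrays, with a log2 difference of -0.15 (SE 0.20). Krt20, a type I keratin of gut epithelium and of the surface cells of the urinary tract, read 12.8 and 22.3 on the labelled Tfrc-null arrays, against 10.4 and 21.4 on the wildtype arrays. Like Krt8, Krt20 read higher on the arrays numbered 2 of both groups, by 0.92 on the log2 scale.

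The promoters of the 3 keratins that were lower without overlap at an unadjusted p under 0.05, and of Krt8 as the partner of Krt18, are shown because the results above turn on these genes. Each is the stretch of 250 bases before the RefSeq start in GRCm38.p6, written on the gene's strand. Krt23 is taken from chr11:99493121-99493370 (minus strand), Krt7 from chr15:101412153-101412402 (plus), Krt18 from chr15:102027966-102028215 (plus) and Krt8 from chr15:102004343-102004592 (minus). Capitals mark matches, on either strand, to 6 motifs searched, which were the TATA box TATAAA, the GC box GGGCGG, the AP-2 site GCCNNNGGC, the AP-1 site TGANTCA, the Grainyhead site AACCNGTT and the ETS site CCGGAAG.
Krt23: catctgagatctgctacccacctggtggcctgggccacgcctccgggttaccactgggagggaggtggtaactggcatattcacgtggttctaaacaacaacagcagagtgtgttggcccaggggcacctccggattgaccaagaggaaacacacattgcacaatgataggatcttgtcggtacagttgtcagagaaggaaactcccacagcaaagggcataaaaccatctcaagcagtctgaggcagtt
Krt7: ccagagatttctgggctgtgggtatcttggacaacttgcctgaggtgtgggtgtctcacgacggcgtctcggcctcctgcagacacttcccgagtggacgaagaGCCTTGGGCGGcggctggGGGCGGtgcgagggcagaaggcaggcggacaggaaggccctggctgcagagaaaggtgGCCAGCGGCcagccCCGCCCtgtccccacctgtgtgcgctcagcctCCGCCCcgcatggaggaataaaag
Krt18: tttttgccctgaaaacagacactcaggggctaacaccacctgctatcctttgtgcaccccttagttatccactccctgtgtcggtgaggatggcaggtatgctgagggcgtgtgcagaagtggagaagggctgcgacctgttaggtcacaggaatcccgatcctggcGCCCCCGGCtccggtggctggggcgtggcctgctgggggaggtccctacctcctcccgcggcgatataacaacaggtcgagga
Krt8: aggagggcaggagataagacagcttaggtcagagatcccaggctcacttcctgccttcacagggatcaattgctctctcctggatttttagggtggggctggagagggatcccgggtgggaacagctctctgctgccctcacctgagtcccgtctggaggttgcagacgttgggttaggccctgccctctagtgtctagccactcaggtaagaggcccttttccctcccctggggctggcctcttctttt

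Krt7 held 4 matches to GGGCGG and 2 to GCCNNNGGC, and the farthest match to each from the start overlaps the other. GCCNNNGGC matched Krt18 at 1 place, beginning 83 bases before the start. Krt23 and Krt8 held none of the 6 motifs in these windows. Of 32851 such windows in the table, GGGCGG was in 32.7%, GCCNNNGGC in 13.7%, TATAAA in 12.4%, CCGGAAG in 6.91%, TGANTCA in 6.75% and AACCNGTT in 1.79%. The table holds 33 windows of 32 of the 48 keratin genes. TATAAA was in 16 of the 33, made up of 12 of 15 hair keratin windows, 3 of 11 stratified, 1 of 4 simple (Krt20) and 0 of 3 other keratin windows. GGGCGG was in 2 of the 33 (Krt7 and Krt75), GCCNNNGGC in 3 (Krt7, Krt18 and Krt42), TGANTCA in 2 (both of Krt13), and CCGGAAG and AACCNGTT in 0. A match describes the letters only, and no match says only that they are not in this window.

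Stratified keratins lay on both sides of 0, with 8 of 17 lower and 9 higher by mean, beside 42.4% and 57.4% of all genes. Of the 11 measured, 7 were lower and 4 higher. Past an unadjusted limma p of 0.05 were 0 of 17, beside 3.98% lower and 4.03% higher over all genes. Krt10, the type I keratin of the upper epidermal layers, read 96.9 and 89.6 on the labelled Tfrc-null arrays, against 79.2 and 66.1 on the wildtype arrays. It lay higher without overlap in the cells labelled Tfrc-null, by 1.29-fold (log2 difference 0.36, SE 0.20, limma adjusted p = 0.762). Krt1, its type II partner, read 14.99 and 11.02 on the labelled Tfrc-null arrays, against 10.04 and 9.56 on the wildtype arrays, also higher without overlap but near the control level.

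Krt78, a type II keratin, read 27.4 and 27.0 on the labelled Tfrc-null arrays, against 19.4 and 25.6 on the wildtype arrays, again higher without overlap. Krt4, the type II keratin of mucosal lining, read 9.22 and 10.9 on the labelled Tfrc-null arrays, against 14.5 and 12.0 on the wildtype arrays, and was the stratified keratin with the lowest difference (-0.39). Its type I partner Krt13 read 31.4 and 13.5 on the labelled Tfrc-null arrays, against 34.3 and 7.56 on the wildtype arrays. The Krt13 readings followed the array number and not the group, with arrays numbered 2 minus 1 at -1.70 on the log2 scale.

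The basal pair of stratified epithelium was at or near background. Krt5 read 11.9 and 14.1 on the labelled Tfrc-null arrays, against 11.8 and 14.3 on the wildtype arrays, a log2 difference of -0.0047. Krt14 was not measured by the rule above, at 8.52 and 7.31 on the labelled Tfrc-null arrays, against 7.28 and 6.12 on the wildtype arrays. Krt15, a further basal keratin, read 10.2 and 8.89 on the labelled Tfrc-null arrays, against 12.9 and 10.2 on the wildtype arrays.

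The other measured stratified keratins stayed within a small range. Krt76, a keratin of the palate, read 13.2 and 9.56 on the labelled Tfrc-null arrays, against 12.0 and 13.2 on the wildtype arrays. Krt79 read 9.19 and 11.4 on the labelled Tfrc-null arrays, against 11.04 and 11.3 on the wildtype arrays, and these groups overlapped, as did those of Krt76. Krt6a, a keratin induced in injured epidermis, read 11.4 and 8.74 on the labelled Tfrc-null arrays, against 13.4 and 7.97 on the wildtype arrays. Krt77 read 10.9 and 8.01 on the labelled Tfrc-null arrays, against 11.3 and 7.87 on the wildtype arrays. Krt6b, Krt16, Krt17 and Krt2 exceeded the control level on none of the 4 arrays.

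Keratins of hair and its sheath also lay close to background. Of 21 genes, 10 were lower and 11 higher by mean, beside 42.4% and 57.4% of all genes, and 7 exceeded the control level on none of the 4 arrays. Of the 8 measured, 5 were lower and 3 higher. An unadjusted limma p of 0.05 was passed by 0 of the 21, beside 3.98% lower and 4.03% higher over all genes. Krt88 read 17.6 and 19.9 on the labelled Tfrc-null arrays, against 17.5 and 20.7 on the wildtype arrays. Krt36 read 17.0 and 18.2 on the labelled Tfrc-null arrays, against 21.3 and 18.2 on the wildtype arrays, and Krt83 read 12.4 and 16.3 on the labelled Tfrc-null arrays, against 17.3 and 17.2 on the wildtype arrays. Krt36 and Krt83 were lower without overlap, with log2 differences close to 0 (values of -0.16 and -0.28).

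Krt33a was the hair keratin with the highest difference. It read 10.3 and 9.69 on the labelled Tfrc-null arrays, against 7.90 and 8.09 on the wildtype arrays, of which the second lies under that array's control level, and its groups did not overlap. Krt33b read 13.4 on both labelled Tfrc-null arrays, against 14.3 and 8.64 on the wildtype arrays, and its groups overlapped. Krt34 read 10.4 and 9.85 on the labelled Tfrc-null arrays, against 10.6 and 10.7 on the wildtype arrays, also lower without overlap (log2 difference -0.07). Krt75, a keratin of the companion layer of the hair follicle, read 9.08 and 10.3 on the labelled Tfrc-null arrays, against 9.39 and 10.999 on the wildtype arrays, and Krt71, of the inner root sheath, read 8.11 and 10.2 on the labelled Tfrc-null arrays, against 9.93 and 8.17 on the wildtype arrays. These last 2 genes overlapped between groups. Near-identical hair keratins can share probe binding, so single members of this class are uncertain.

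Among the keratins outside these classes, Krt23 was the only 1 of 4 measured whose groups did not overlap. Krt42, a type I keratin that humans carry as a pseudogene, read 44.0 and 48.7 on the labelled Tfrc-null arrays, against 47.6 and 52.8 on the wildtype arrays. Krt80 read 19.6 and 27.0 on the labelled Tfrc-null arrays, against 19.2 and 27.0 on the wildtype arrays, and Krt24 read 8.46 and 9.92 on the labelled Tfrc-null arrays, against 8.44 and 9.60 on the wildtype arrays. All 3 overlapped between groups. Taking every class, the 20 keratins that were not measured read between 3.93 and 10.7 on the 4 arrays.

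Simple and stratified keratins were then set side by side. The median log2 difference was -0.45 over the 5 simple keratins and 0.03 over the 17 stratified keratins, beside 0.04 over all genes, which puts the simple class 0.48 below the stratified class (-0.48). With 5 genes, the simple median is the value of Krt8 itself, whose groups overlapped. Over the 11 measured stratified keratins alone the median was -0.01. Mean log2 levels of the simple class were 7.17 and 7.60 on the labelled Tfrc-null arrays, against 7.58 and 8.04 on the wildtype arrays, and those of the stratified class were 3.54 and 3.34 on the labelled Tfrc-null arrays, against 3.51 and 3.28 on the wildtype arrays. The simple class means overlapped between the groups. Without wildtype replicate 2 the simple median was 0.0034 and was 0.09 above the stratified median; without labelled Tfrc-null replicate 1 the values were -0.19 and -0.18. Each of these fits sets 1 array of a group against arrays of both numbers in the other. Within each replicate number the simple class mean was lower on the labelled Tfrc-null array (7.17 against 7.58, and 7.60 against 8.04). With 5 genes in a class and 2 arrays in a group, the class difference was not tested, and its pooled value moved with single arrays.

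**Figure D3:**
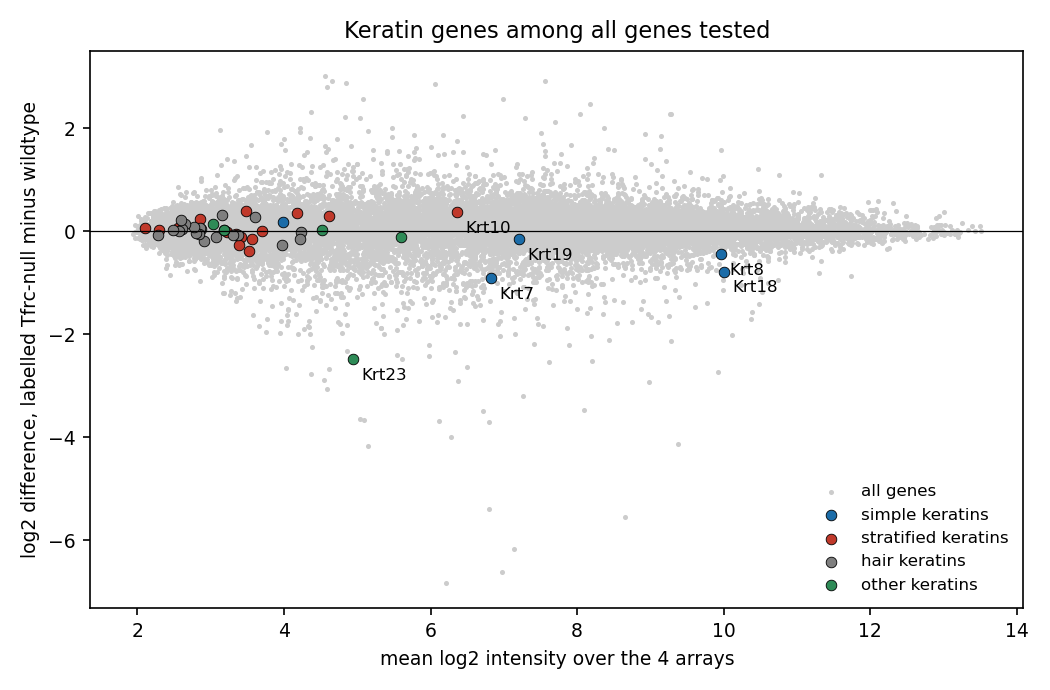
Log2 difference, labelled Tfrc-null minus wildtype, against mean log2 intensity for all 18194 genes in grey and the 48 keratins coloured by class. Krt23 (-2.49), Krt7 (-0.91) and Krt18 (-0.79) lie in the lower part of the cloud at their levels, and Krt10 (0.36) lies a little above 0.

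Filament type and position were set against the differences. Of 25 type I genes 9 were lower and 16 higher, and of 23 type II genes 15 were lower and 8 higher, while 42.4% of all genes were lower. These counts include genes at the control level. Of the 13 measured type I genes 7 were lower and 6 higher, and of the 15 measured type II genes 11 were lower and 4 higher. Of 14546 measured genes of all kinds, 6051 were lower and 8475 higher. The genes lie in clusters on chromosomes 11 and 15 of GRCm38.p6, with 24 on chromosome 11 and 24 on chromosome 15. Krt23 (chromosome 11, 99477973 to 99493120) has Krt20 as its nearest measured keratin neighbour at 39820 bases, which did not differ between the groups beyond its spread (log2 difference 0.18, SE 0.44). Krt18 (chromosome 15, 102028216 to 102032026) is a type I gene at the edge of the type II cluster, 23874 bases from Krt8.

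For 9 keratins a gene had more than 1 probe set. The second probe set of Krt42 read 21.9 and 31.0 on the labelled Tfrc-null arrays, against 20.2 and 29.3 on the wildtype arrays, a difference of 0.10, where the probe set used gave -0.12. Neither separated the groups. The further probe sets of Krt13 lay below the control level on all 4 arrays, so the readings of that gene rest on 1 probe set of the 3. A probe set assigned to both Krt14 and Krt17, left out of the 61, read 9.27 and 8.86 on the labelled Tfrc-null arrays, against 6.69 and 9.15 on the wildtype arrays.

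Genes of desmosomes, the junctions to which keratin filaments attach, had lower means in the cells labelled Tfrc-null. Of 12 desmosomal genes read, 12 were lower, beside 42.4% of all genes, and 5 had an unadjusted p under 0.05, beside 3.98% of all genes. Their median log2 difference was -0.31, beside 0.04 over all genes, and 0 passed the adjusted threshold. The 12 include 4 genes not measured above background (Dsc1, Dsc3, Dsg1a and Pkp3). Jup, which encodes plakoglobin, read 233.3 and 173 on the labelled Tfrc-null arrays, against 898 and 537 on the wildtype arrays (log2 difference -1.79). Dsp, encoding desmoplakin, the direct anchor of keratin filaments, read 372 and 413 on the labelled Tfrc-null arrays, against 707 and 628 on the wildtype arrays (-0.76). Dsg2, Dsc2 and Perp, further desmosomal membrane proteins, differed by -0.99, -1.23 and -0.96. Dsg2 and Dsc2 are the cadherins of simple epithelia, whereas the unmeasured Dsc1, Dsc3 and Dsg1a are those of stratified epithelia.

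Other partners of keratins gave a mixed picture. By mean alone, 42.4% of all genes were lower and 57.4% higher. Among plakins and hemidesmosome genes 7 of 9 were lower and 0 had an unadjusted p under 0.05, with Eppk1, encoding the keratin-binding epiplakin, at 11.6 and 27.1 on the labelled Tfrc-null arrays, against 30.1 and 74.8 on the wildtype arrays. Cornified envelope genes of the epidermis had a median of 0.03 over 13 genes, of which 4 (Flg, Sprr1b, Sprr3 and Klk5) exceeded the control level on none of the 4 arrays. Tgm5, a transglutaminase of that list, was higher with an unadjusted p under 0.05, at 29.5 and 24.7 on the labelled Tfrc-null arrays, against 20.2 and 13.7 on the wildtype arrays. Among intermediate filament genes that are not keratins, 7 of 13 were higher, 5 lower and 1 (Nes) had equal means, and 0 had an unadjusted p under 0.05, with a median of 0.11. Des, the filament gene of muscle and some stromal cells, read 201.8 and 145.3 on the labelled Tfrc-null arrays, against 126.5 and 96.6 on the wildtype arrays, higher without overlap.

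Regulators of epithelial genes included both lower and higher members. Of 19 genes 4 were lower and 2 higher at an unadjusted p under 0.05, beside 3.98% and 4.03% of all genes, with a median of 0.02, and 0 passed the adjusted threshold. Grhl2, a factor that maintains epithelial junctions, read 194.7 and 180.2 on the labelled Tfrc-null arrays, against 664 and 494 on the wildtype arrays, and the epithelial splicing factor gene Esrp1 read 544 and 535 on the labelled Tfrc-null arrays, against 1555 and 1285 on the wildtype arrays. Both had groups well apart. Tfap2a and Trp63, factors that act on keratin genes in stratified epithelia, were lower, at -1.10 and -1.61, and Trp63 also stands in the urothelial and epidermal lists. Snai1, a repressor of epithelial genes, was higher (1.56), and Tfap2c was higher by 0.61.

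**Figure D4:**
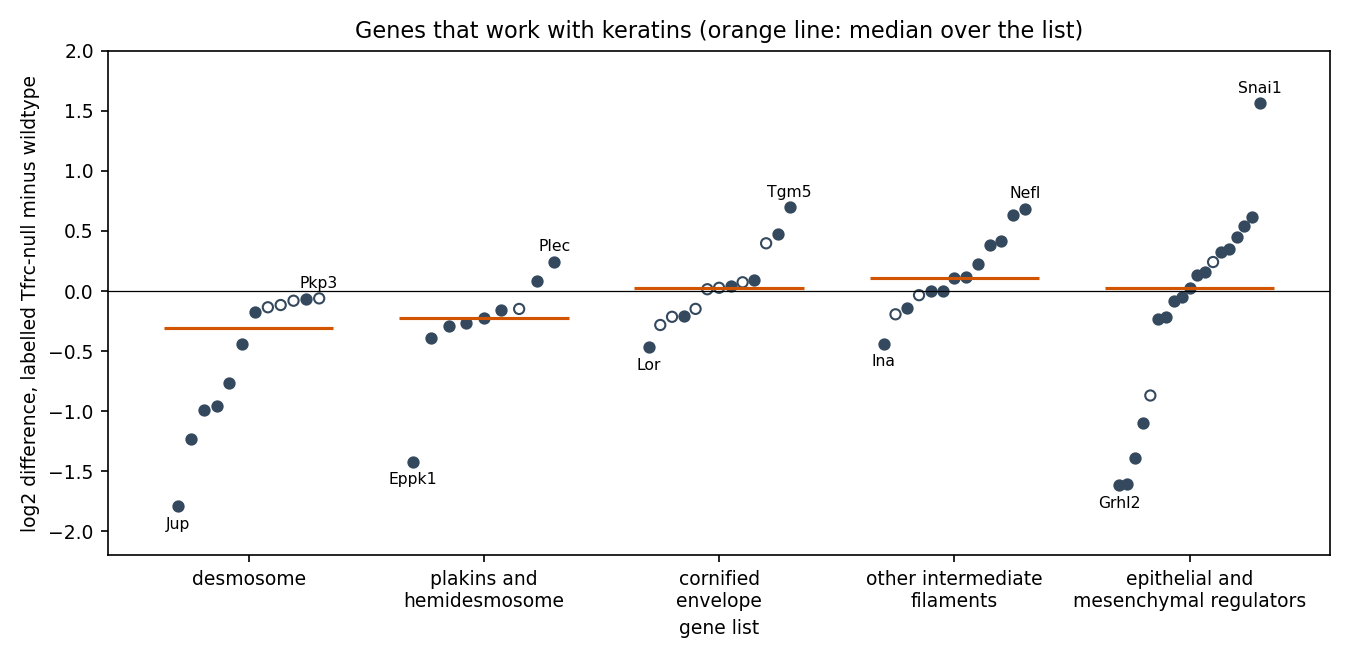
Log2 difference, labelled Tfrc-null minus wildtype, of each gene in 5 lists of keratin partners and regulators, with the median of each list as an orange line and open points for genes not above the control level on both arrays of a group. The desmosomal genes all lie below 0 (median -0.31), with Jup lowest, and the regulators run from Grhl2 (-1.61) to Snai1 (1.56).

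Markers of the cell types that the samples could hold also differed between the groups. Counts of lower and higher markers are by mean alone, and 42.4% of all genes were lower and 57.4% higher. Ureteric bud and collecting duct markers were lower in 13 of 14 genes, all 14 measured above background, and their summed intensity was 2796 and 2709 on the labelled Tfrc-null arrays, against 6746 and 6512 on the wildtype arrays. For nephron epithelium 7 of 8 were lower, 3 of them without overlap, beside 14.3% of all genes lower without overlap. Lhx1 stands in the ureteric bud list as well. The nephron marker sums were 3250.2 and 2953 on the labelled Tfrc-null arrays, against 4041 and 3864 on the wildtype arrays. Hnf4a, the largest part of those sums and among the 3 without overlap, differed by only -0.08 on the log2 scale. Urothelial markers were lower in 5 of 7 genes and higher in 2, and summed to 105.0 and 88.6 on the labelled Tfrc-null arrays, against 143.8 and 146.1 on the wildtype arrays. Trp63, which also counts in the epidermal sums below, had the largest difference of that list. It read 20.9 and 12.8 on the labelled Tfrc-null arrays, against 51.0 and 48.6 on the wildtype arrays. All 7 stromal markers were higher, with sums of 13551 and 12198 on the labelled Tfrc-null arrays, against 11248 and 8280.4 on the wildtype arrays. Lower with an unadjusted limma p under 0.05 were 6 ureteric bud, 1 nephron and 2 urothelial markers, beside 3.98% of all genes. Of the stromal markers 4 were higher at that level, beside 4.03% of all genes. The part of cell makeup in the keratin differences was not tested.

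Epithelia from outside the kidney were looked for in the same way. Counts are again by mean alone, beside 42.4% of all genes lower. Of 8 epidermal markers 6 were lower, Flg, Dsg1a and Col17a1 exceeded the control level on none of the 4 arrays, and the sums were 111.7 and 118.7 on the labelled Tfrc-null arrays, against 169.5 and 164.1 on the wildtype arrays. Of 5 mesothelial markers 3 were lower, Lrrn4 and Bnc1 exceeded the control level on none of the 4 arrays, and the sums were 708 and 945 on the labelled Tfrc-null arrays, against 842 and 1319.6 on the wildtype arrays, with Wt1 making up most of them. Among cells that use no keratin, 4 of 4 endothelial and 3 of 3 erythroid markers were lower (Hba-a1 above the control level on none of the 4 arrays), and 2 of 4 leukocyte markers were lower. Endothelial sums were 1321 and 886 on the labelled Tfrc-null arrays, against 1715 and 1184 on the wildtype arrays, and leukocyte sums were 2800.2 and 2582 on the labelled Tfrc-null arrays, against 2762 and 2903 on the wildtype arrays. Erythroid sums were 53.7 and 33.1 on the labelled Tfrc-null arrays, against 578 and 1869 on the wildtype arrays.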

How the data were processed

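Each sample was hybridised to a mouse whole-genome expression array of 45101 probe sets, and the authors deposited 1 linear intensity for each probe set. The submitters' processing notes name RMA and no settings; how log2 values became linear intensities is not stated. RMA usually makes arrays alike in distribution, which would hide a shift common to most genes; the medians of the deposited arrays were close but not equal, at 17.5 to 19.3.

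Intensities were taken to log2. Of the probe sets 34958 had a single symbol in the platform annotation, and each of 18194 genes was represented by its probe set of highest mean. The tests were fitted in R 4.3.3 with limma 3.58.1, using lmFit and eBayes without a block. P-values were adjusted by Benjamini-Hochberg across the 18194 genes, at a threshold of 0.05. The procedure was tested on simulated data with equal, independent noise for every gene and changes larger than any keratin difference. That test therefore does not bear on differences of the size seen here. Gene locations and promoter sequences are RefSeq's for GRCm38.p6.

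The members and lists were chosen with earlier results of these data known. Values of every array are given for keratins above the control level on both arrays of a group, and of each other list up to 6 genes with the smallest p were eligible to be named; Krt14 (partner of Krt5), keratins and markers at the control level, and the unmeasured desmosomal cadherins were named after their values were seen. Alternatives were the replicate number as a block, the mean of all probe sets, dim genes left out, arrays centred on their median, Krt23 counted as simple, and each array left out in turn. The arrays are called biological replicates, with no animal given, so p-values refer to the spread between these samples, whose number limits the precision. The eBayes step also draws the variance of each gene towards a value shared by all genes. The SE and p of a gene therefore do not rest on its own spread alone.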

Additional observations from a re-analysis of the deposited data

How the results depend on the processing

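Krt23, Krt7, Krt18 and Krt10 kept their direction under all 8 alternatives run, and none of the 6 keratins with a tested difference in the text passed the adjusted threshold under any. Leaving out single arrays gave log2 differences of -2.73 to -2.26 for Krt23, -1.15 to -0.67 for Krt7, -1.11 to -0.46 for Krt18, -0.99 to 0.088 for Krt8 (reversed at 0.088 without labelled Tfrc-null replicate 1 and 0.071 without wildtype replicate 2), -0.31 to 0.0034 for Krt19 (reversed at 0.0034 without wildtype replicate 2) and 0.23 to 0.50 for Krt10. Adjusted p for Krt23 ranged from 0.0949 with the replicate block to 0.922. Same-numbered arrays deviated together (correlation 0.512 across genes), but with 2 pairs this does not show pairing; with the replicate block 2 genes passed, Stfa3 and Stfa2l1, 2691 had an unadjusted p under 0.05, and 4 keratins were lower at that level (Krt8 added, at -0.45, SE 0.139 and unadjusted limma p = 0.0303, against p = 0.402 without the block). With the mean of all probe sets 1 gene passed, Stfa3. No gene passed without single arrays (0 to 0), where 2 keratins were lower at an unadjusted p under 0.05 each time (Krt7 lost without labelled Tfrc-null replicate 2 or wildtype replicate 1, Krt18 without labelled Tfrc-null replicate 1 or wildtype replicate 2) and 0 to 1 higher, and 1 to 2 were at least 2-fold lower and 0 to 1 higher without overlap. The simple median was -0.52 with arrays centred on their median, -0.62 with Krt23 counted as simple, and -0.78 to 0.0034 without single arrays; the simple minus stratified value ran from -0.94 to 0.086 and the stratified median from -0.08 to 0.16. Signal near the control level limits most stratified and hair keratins. The causes were not tested.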

Other observations

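Within-array ratios of keratins to Cdh1, the cadherin of epithelial junctions, were computed after the values had been seen. Cdh1 itself read 629 and 670.4 on the labelled Tfrc-null arrays, against 941 and 1166 on the wildtype arrays, a log2 difference of -0.69. Relative to Cdh1 on the same array, the log2 ratio of Krt23 was -5.37 and -5.93 on the labelled Tfrc-null arrays, against -3.65 and -4.04 on the wildtype arrays, a difference of -1.80. Krt23 was near the control level on the labelled Tfrc-null arrays, so the size of that difference is uncertain. The ratios of Krt18 and Krt7 differed by -0.10 and -0.22 with overlapping groups. For Krt19 the ratio was -2.13 and -2.31 on the labelled Tfrc-null arrays, against -2.76 and -2.75 on the wildtype arrays, a difference of 0.54 without overlap, and for Krt8 it differed by 0.24 with overlap. Such a ratio shows unequal change of 2 genes and not which of them changed, and no test was made.

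Between the filament partners, the log2 ratio of Krt18 to Krt8 was 0.09 and -0.34 on the labelled Tfrc-null arrays, against 0.56 and -0.13 on the wildtype arrays, and these groups overlapped. Over all 48 keratins, 29 differed more between the array numbers than between the groups, as did 15 of the 28 measured keratins. The count was not made over all genes, so it cannot be called particular to keratins. Krt13 (-1.70), Krt8 (1.06) and Krt20 (0.92) showed the widest differences between arrays numbered 2 and 1 on the log2 scale.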
